A study of Homo sapiens with 4 samples.

Results

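The 10 genes considered here belong to the pathway that builds and desaturates fatty acids, and were followed through a comparison of hypoxia and TET1 knockdown in FaDu cells, an established epithelial line of hypopharyngeal squamous carcinoma. The genes were taken by name, with earlier results of these data known. They were ACLY and ACSS2, which supply acetyl-CoA, and ACACA and FASN, which turn it into palmitate. The others were the desaturases SCD, FADS1 and FADS2, the elongases ELOVL5 and ELOVL6, and LPIN1, a phosphatidate phosphatase of glycerolipid synthesis. All 10 were found among the 62077 rows of the gene table, and all 10 were among the 15057 genes whose mean level over the libraries was at least 1 FPKM (fragments scaled by transcript length and by the number mapped), the minimum used for counting. The study asked which genes need TET1, a dioxygenase that oxidizes 5-methylcytosine in DNA, for their response to low oxygen.

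RNA was sequenced from 4 libraries. N-scr was from cells with a scrambled control in normoxia and H-scr from the same control cells in hypoxia, while N-si and H-si were from cells with a TET1 knockdown (labelled TET1-si) in normoxia and hypoxia. Where 4 values are listed without names they stand in the order N-scr, H-scr, N-si and H-si. Hypoxia meant 19 h at 1% O2, 5% CO2 and 94% N2. All cells grew in DMEM with fetal bovine serum, which itself holds lipid. The study's methods describe the knockdown as short hairpin RNA from a lentivirus (pLKO.1-puro), with cells used 4 to 5 days after infection. There was 1 library per group and no replicate, so no difference has a replicate check, no p-value is given, and differences between libraries cannot be told apart from differences between cultures. The depths recovered from the table were 22900000 reads for N-scr, 24520000 for H-scr, 24400000 for N-si and 22450000 for H-si. TET1 itself went from 0.129 FPKM in N-scr to 0.331 in H-scr, and from 0.0493 in N-si to 0.122 in H-si, about 28, 76, 11 and 26 reads, so the scrambled libraries were 2.63-fold above the TET1-si libraries in normoxia and 2.71-fold in hypoxia. The glucose transporter SLC2A1, a textbook hypoxia target, went from 101.3 FPKM in N-scr to 417.8 in H-scr, and from 145.3 in N-si to 415.3 in H-si, and of 10 genes of a hypoxia target list 9 were at least 2-fold higher with hypoxia in scrambled cells, where 12.9% of all genes tested were, and 8 in TET1-si cells, where 12.5% were. The exceptions were ADM, with ratios of 1.70 and 1.67, and VEGFA, with a ratio of 1.75 in TET1-si cells. The median hypoxia response of this list (log2 of FPKM + 0.1) was 2.293 in scrambled and 1.499 in TET1-si cells. The response was smaller in TET1-si cells for all 10 genes, and at least 2-fold smaller for CA9, EGLN3 and BNIP3. Under hypoxia 4 of the 10 were higher and 6 lower with TET1-si. CA9 was 15.5-fold and ADM 3.10-fold lower there, the only 2 that were at least 2-fold lower.

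Cytosolic acetyl-CoA is made from citrate by ACLY or from acetate by ACSS2. ACACA carboxylates it to malonyl-CoA and FASN condenses these units into palmitate, which elongases lengthen and desaturases open with double bonds, SCD at the carbon that gives oleate and FADS1 and FADS2 on the polyunsaturated chains. FASN draws on NADPH, and each desaturation uses molecular oxygen, the substrate that hypoxia limits. Many of the genes are known targets of SREBP-1, the transcription factor encoded by SREBF1.

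Every one of the 10 genes had its highest level in H-scr, where 17.6% of all genes tested did. Their summed level went from 536.3 FPKM in N-scr to 1828.9 in H-scr in control cells, and from 517.0 in N-si to 530.7 in H-si in knockdown cells, so H-scr stood alone and the other 3 libraries were close together. As a share of each library's FPKM these sums were 0.0652%, 0.241%, 0.0650% and 0.0733%. The median of the 10 levels went from 48.1 FPKM in N-scr to 113.6 in H-scr and from 31.1 in N-si to 37.7 in H-si. For 6 of the 10 (ACLY, ACSS2, SCD, FADS1, FADS2 and LPIN1) the level in H-scr was at least 2 times that in each of the other libraries, a pattern shared by 2.15% of all genes tested. In bulk RNA, fewer cells that express a gene and less RNA per cell cannot be told apart.

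**Figure D1:**
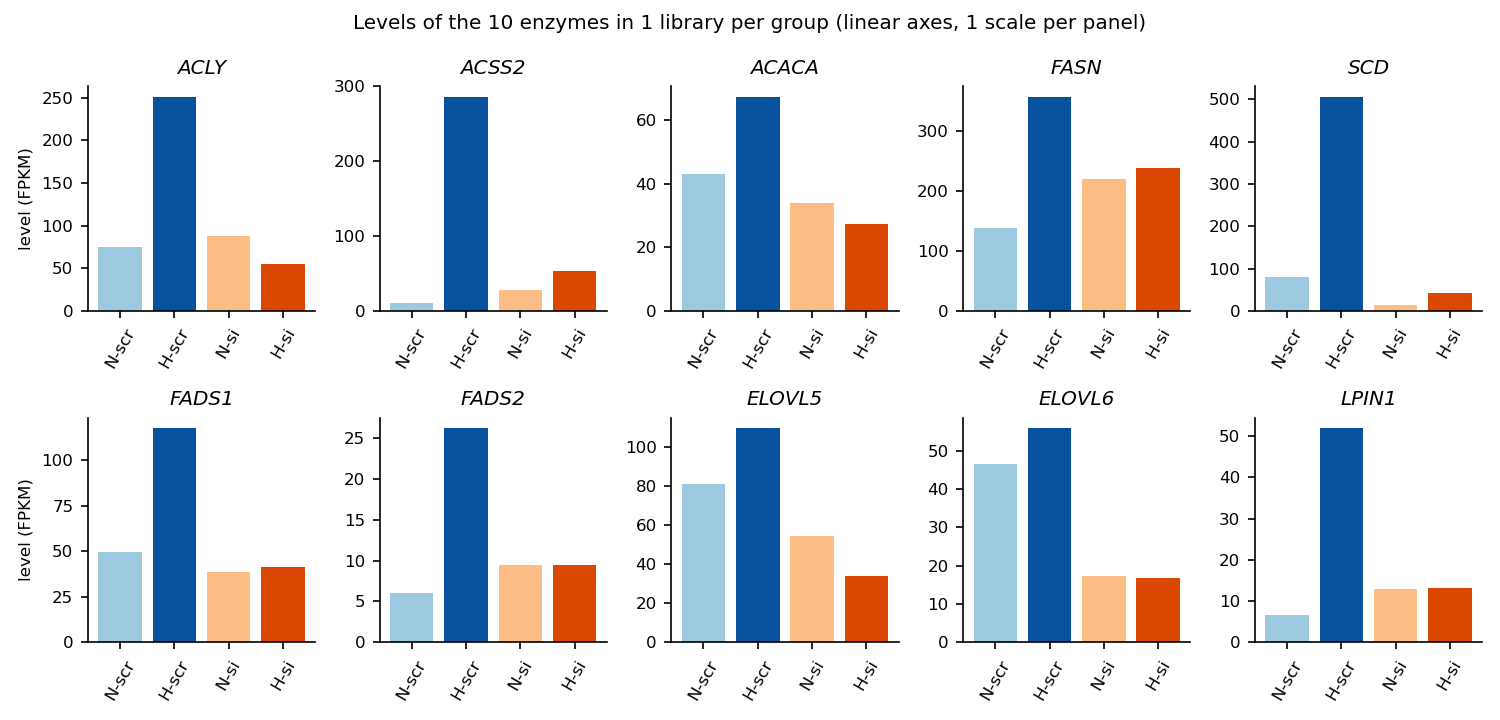
Level of each of the 10 genes (FPKM, linear axes, 1 scale per panel) in the 4 libraries, 1 bar per library with no replicate. In every panel the H-scr bar is the highest, from 26.2 FPKM for FADS2 to 506.3 for SCD.

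Since all 10 genes peaked in the same library, their start regions were searched for short motifs. RefSeq windows of 300 bases (250 before to 50 after a start) were used for the 9 genes other than FASN, 16 windows in all, in build GRCh38.p14. Each was placed on hg19 by an exact match, which 15 of the 16 had. Both strands were searched for the sterol regulatory element core TCACNCCAC, the E-box CACGTG that SREBP-1 can bind, the hypoxia response element core ACGTG (which lies within CACGTG), the CCAAT box CCAAT bound by NF-Y, and the GC box GGGCGG bound by Sp1. The GC box was in 12 of the 16 windows, of 8 genes, and in 45.0% of all 35116 RefSeq windows. CCAAT was in 8 windows of 6 genes and in 34.6% of all. ACGTG was in 4 windows (ACACA, ACSS2, ELOVL5 and ELOVL6) and in 21.4% of all, CACGTG in 1 (ELOVL5) and in 7.26% of all, and TCACNCCAC in 0 and in 1.13% of all. The windows are not all separate sequences. Those of ACLY overlap and share their CCAAT and GC box matches, which are counted in both, and those of FADS2 overlap too. A match is a description of these letters and not a bound site.

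The windows shown are those of the 3 genes with the largest hypoxia responses in scrambled cells (log2 of FPKM + 0.1, H-scr against N-scr), ACSS2 (chr20:33464165-33464464, plus strand, the later of 2 starts), LPIN1 (chr2:11886508-11886807, plus strand, the last of 3 starts) and SCD (chr10:102106740-102107039, plus strand), and of the 2 with the smallest, ELOVL5 (chr6:53213699-53213998, minus strand) and ELOVL6 (chr4:111119722-111120021, minus strand). They are written 5′ to 3′ on the strand of the gene, with matches to any of the searched motifs on either strand in capitals (a GC box on the other strand reads CCGCCC, for example).
ACSS2: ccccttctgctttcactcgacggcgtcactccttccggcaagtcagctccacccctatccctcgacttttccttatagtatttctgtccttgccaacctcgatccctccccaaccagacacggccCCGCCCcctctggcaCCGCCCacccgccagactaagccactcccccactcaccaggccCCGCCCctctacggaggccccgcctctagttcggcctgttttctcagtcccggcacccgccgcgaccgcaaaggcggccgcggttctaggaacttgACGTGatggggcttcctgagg
LPIN1: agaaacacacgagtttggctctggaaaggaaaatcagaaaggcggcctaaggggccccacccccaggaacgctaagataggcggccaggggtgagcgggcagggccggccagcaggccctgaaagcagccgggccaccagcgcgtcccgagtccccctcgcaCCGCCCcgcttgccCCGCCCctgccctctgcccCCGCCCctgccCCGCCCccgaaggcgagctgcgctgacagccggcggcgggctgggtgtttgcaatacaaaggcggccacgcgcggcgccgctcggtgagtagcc
SCD: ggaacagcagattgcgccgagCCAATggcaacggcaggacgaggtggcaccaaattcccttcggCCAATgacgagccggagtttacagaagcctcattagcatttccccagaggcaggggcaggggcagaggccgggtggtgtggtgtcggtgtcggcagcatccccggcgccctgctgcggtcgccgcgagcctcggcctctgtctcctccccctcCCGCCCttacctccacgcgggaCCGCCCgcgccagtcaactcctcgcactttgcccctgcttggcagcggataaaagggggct
ELOVL5: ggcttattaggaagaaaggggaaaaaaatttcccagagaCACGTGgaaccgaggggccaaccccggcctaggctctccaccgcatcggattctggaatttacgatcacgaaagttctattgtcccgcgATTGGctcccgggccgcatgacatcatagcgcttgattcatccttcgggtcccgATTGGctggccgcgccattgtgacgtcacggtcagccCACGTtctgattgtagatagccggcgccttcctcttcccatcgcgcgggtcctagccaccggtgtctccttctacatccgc
ELOVL6: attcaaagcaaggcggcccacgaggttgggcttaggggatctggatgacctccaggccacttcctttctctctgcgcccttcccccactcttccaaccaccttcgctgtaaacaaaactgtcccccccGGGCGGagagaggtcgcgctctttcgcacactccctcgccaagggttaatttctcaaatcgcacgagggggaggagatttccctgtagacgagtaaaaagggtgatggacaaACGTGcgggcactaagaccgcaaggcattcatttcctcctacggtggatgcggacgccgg
SCD, with a response of 2.67 on this scale, held 2 CCAAT boxes and 2 GC boxes and no ACGTG. LPIN1 held 4 GC boxes and no other motif, and ACSS2 held 3 GC boxes and 1 ACGTG after the start. ELOVL5, with a response of 0.43, held the CACGTG, another ACGTG and 2 CCAAT boxes, and ELOVL6 held 1 ACGTG and 1 GC box. Over all windows searched, ACGTG was found for the genes with the smallest responses, ELOVL6 (0.26), ELOVL5 (0.43) and ACACA (0.65, window not shown). It was also found for ACSS2, which had the largest (4.82), there only after the start and in 1 of its 2 windows. Whether the motif goes with the response was not tested.

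Acetyl-CoA supply showed the largest single response. ACSS2, the cytosolic acetyl-CoA synthetase (ENSG00000131069, hg19 chromosome 20, 33459949 to 33515769, plus strand), went from 10.0 FPKM in N-scr to 286.0 in H-scr, and from 28.2 in N-si to 53.5 in H-si. It was lowest in scrambled cells in normoxia and 28.6-fold higher in the same cells in hypoxia, a log2 change of 4.82 on the log2(FPKM + 0.1) scale used throughout, with a 95% counting interval of 4.72 to 4.95. In TET1-si cells the change was 0.92 (0.84 to 1.01), starting from a higher normoxic level. Under hypoxia the knockdown library was 5.34-fold below the scrambled one, while in normoxia it was 2.82-fold above. ACLY, ATP citrate lyase (ENSG00000131473, chromosome 17, 40023161 to 40086795, minus strand), went from 74.9 FPKM in N-scr to 251.2 in H-scr, and from 87.7 in N-si to 55.1 in H-si. Its lowest library was therefore the hypoxic knockdown and its highest the hypoxic control. ACLY rose by 1.74 in scrambled cells (1.71 to 1.78), whereas its change in TET1-si cells was -0.67 (-0.72 to -0.62). The 95% counting intervals rest on reads approximated from FPKM and cover counting error only.

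The enzymes of palmitate synthesis had smaller responses than those of acetyl-CoA supply. ACACA, acetyl-CoA carboxylase, the committed step (ENSG00000132142, chromosome 17, 35441923 to 35766909, minus strand), went from 43.0 FPKM in N-scr to 67.3 in H-scr, and from 33.9 in N-si to 27.4 in H-si. Neither hypoxia response reached 2-fold, at 0.65 in scrambled and -0.31 in TET1-si cells, but H-si lay 2.46-fold below H-scr. FASN, fatty acid synthase (ENSG00000169710, chromosome 17, 80036214 to 80056208, minus strand), went from 138.9 FPKM in N-scr to 357.1 in H-scr, and from 219.8 in N-si to 237.6 in H-si. FASN rose 2.57-fold with hypoxia in scrambled cells and its ratio in TET1-si cells was 1.08. It was the only member not at least 2-fold lower in H-si than in H-scr, with a ratio of H-si to H-scr of 0.666 (log2 change -0.59, interval -0.60 to -0.57). In normoxia its change with TET1-si was 0.66.

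Of the desaturases SCD was the most abundant in both control libraries. SCD, the desaturase that makes oleate and palmitoleate (ENSG00000099194, chromosome 10, 102106877 to 102124591, plus strand), went from 79.5 FPKM in N-scr to 506.3 in H-scr, and from 14.4 in N-si to 42.2 in H-si. Both knockdown libraries were below both control libraries. SCD was the only member that rose at least 2-fold with hypoxia in each knockdown state, 6.37-fold in scrambled cells (log2 change 2.67, interval 2.64 to 2.70) and 2.92-fold in TET1-si cells (1.54, interval 1.47 to 1.63). The scrambled library was 5.51-fold above the TET1-si library in normoxia and 12.0-fold above it in hypoxia. FADS1, the delta-5 desaturase (ENSG00000149485, chromosome 11, 61567099 to 61596790, minus strand), went from 49.5 FPKM in N-scr to 117.5 in H-scr, and from 38.6 in N-si to 41.5 in H-si. FADS2, the delta-6 desaturase beside it (ENSG00000134824, chromosome 11, 61560452 to 61634826, plus strand), went from 6.05 FPKM in N-scr to 26.2 in H-scr, and from 9.50 in N-si to 9.44 in H-si. In each of these genes H-scr stood above the other 3 libraries, which lay within 1.57-fold of each other for FADS2 and 1.28-fold for FADS1. FADS1 rose by 1.24 and FADS2 by 2.09 in scrambled cells, against 0.11 (0.04 to 0.17) and -0.01 (-0.17 to 0.15) in TET1-si cells. FADS2 had the fewest reads of the 10 genes, about 399 in N-scr against 1847 in H-scr, and 667 in N-si against 610 in H-si. The annotated span of FADS2 overlaps that of FADS1 on the other strand and that of FEN1, and strand-specific counting is not stated, so reads may be shared between them. FEN1 was at 76.3, 53.0, 88.2 and 18.2 FPKM in N-scr, H-scr, N-si and H-si, not highest in H-scr. Likewise AL139819.1 lies within SCD, at 15.1, 105.3, 4.12 and 8.16 FPKM, and those reads cannot be told apart from reads of SCD.

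The elongases had the smallest hypoxia responses of the 10 genes in scrambled cells, but not in TET1-si cells. ELOVL5, which lengthens polyunsaturated chains (ENSG00000012660, chromosome 6, 53132196 to 53213947, minus strand), went from 81.3 FPKM in N-scr to 109.7 in H-scr, and from 54.7 in N-si to 33.9 in H-si. ELOVL6, which lengthens palmitate to stearate, the substrate of SCD (ENSG00000170522, chromosome 4, 110967002 to 111120355, minus strand), went from 46.6 FPKM in N-scr to 55.9 in H-scr, and from 17.2 in N-si to 16.9 in H-si. In each of them both knockdown libraries were below both control libraries, and the start window of ELOVL5 is the one shown above with the E-box. In scrambled cells the hypoxia response was 0.43 (0.38 to 0.49) for ELOVL5 and 0.26 (0.21 to 0.31) for ELOVL6. In TET1-si cells ELOVL5 had a change of -0.69 and ELOVL6 of -0.03 (-0.11 to 0.05). H-scr was 3.23-fold above H-si for ELOVL5 and 3.30-fold for ELOVL6, and N-scr was 1.49 times and 2.71 times N-si.

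LPIN1 was the member of glycerolipid synthesis, and makes diacylglycerol for triacylglycerol and phospholipid synthesis (ENSG00000134324, chromosome 2, 11817721 to 11967535, plus strand). It went from 6.55 FPKM in N-scr to 51.9 in H-scr, and from 12.9 in N-si to 13.2 in H-si. The gene was lowest in N-scr, and the TET1-si libraries were nearly equal. LPIN1 rose 7.92-fold with hypoxia in scrambled cells (log2 change 2.97, interval 2.88 to 3.09), against a change of 0.03 (-0.07 to 0.13) in TET1-si cells.

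Set side by side, 7 of the 10 genes rose at least 2-fold with hypoxia in scrambled cells (ACLY, ACSS2, FASN, SCD, FADS1, FADS2 and LPIN1), where 12.9% of all genes tested were higher. None fell, where 4.53% were lower. In TET1-si cells 1 of the 10 rose, SCD, where 12.5% of all genes were higher, and 0 fell, where 8.66% were lower. The median hypoxia response of the 10 genes was 1.55 in scrambled and 0.01 in TET1-si cells, beside 0.05 and 0.03 over all genes tested. Under hypoxia 9 of the 10, all but FASN, were at least 2-fold lower with TET1-si, where 8.35% of all genes were lower, and 0 were higher, where 12.0% were. In normoxia SCD and ELOVL6 were at least 2-fold lower with TET1-si, where 5.56% of all genes were, and ACSS2 was higher, where 12.1% were. The median change with TET1-si was -1.70 in hypoxia and -0.06 in normoxia, beside 0.10 and 0.15 over all genes tested. These comparisons share libraries: H-scr enters the hypoxia response of scrambled cells and the TET1-si response under hypoxia, so a high value there moves both.

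**Figure D2:**
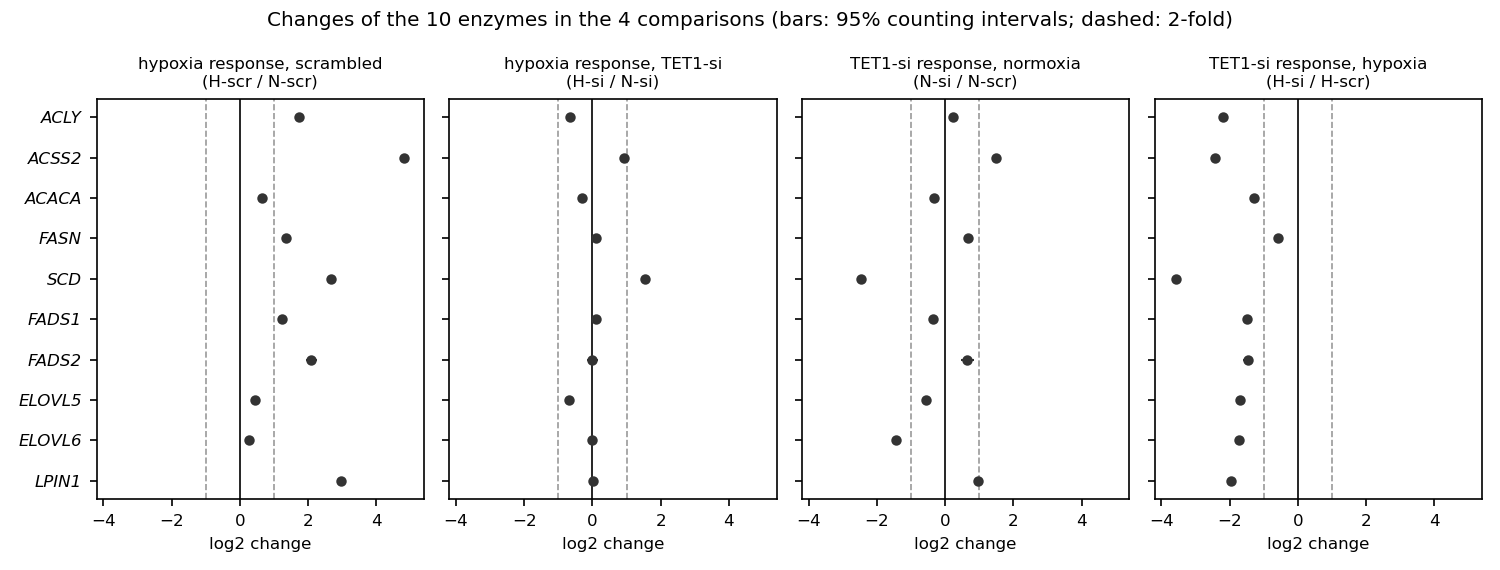
Log2(FPKM + 0.1) change of each of the 10 genes in the 4 comparisons of single libraries, with 95% counting intervals, and 2-fold lines. In scrambled cells the hypoxia responses run from 0.26 for ELOVL6 to 4.82 for ACSS2, and in TET1-si cells from -0.69 for ELOVL5 to 1.54 for SCD.

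Subtracting the hypoxia response of scrambled cells from that of TET1-si cells gave a value below 0 for 10 of 10 genes, where 55.4% of all genes tested were below 0. The difference reached 2-fold for 8, all but ACACA and ELOVL6, where 7.86% of all genes did in that direction, and for 0 in the other, where 4.87% did. It ran from -3.90 for ACSS2 (interval -4.06 to -3.77), -2.94 for LPIN1 and -2.41 for ACLY down in size to -0.95 for ACACA and -0.28 for ELOVL6. The median difference of the 10 genes was -1.19, beside -0.06 over all genes tested. Values below 0 were not particular to these genes. They were also found for 10 of 10 genes of the hypoxia target list. Among the lists described below they were found for 20 of 20 cholesterol genes and 22 of 26 other fatty acid synthesis genes. They were found for 6 of 11 regulators and 8 of 20 beta-oxidation genes. SCD, the gene with the lowest level relative to the controls in both TET1-si libraries, had a difference of -1.13. This was smaller in size than those of ACSS2, LPIN1, ACLY, FADS2 and FASN, and close to that of FADS1 (-1.14).

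**Figure D3:**
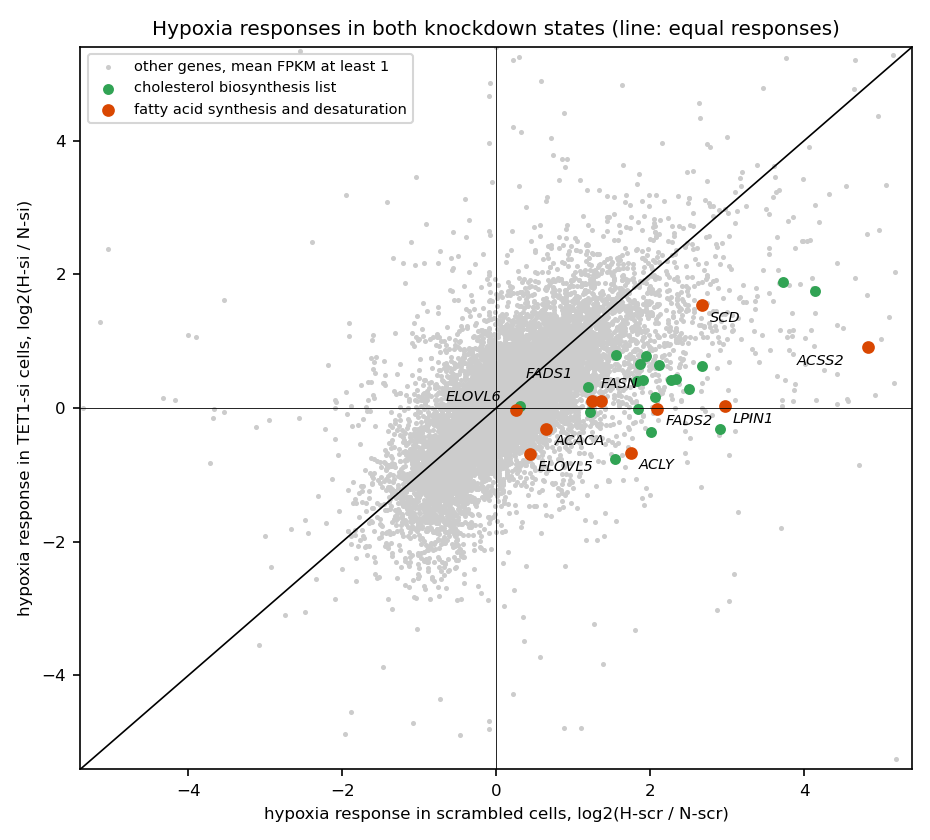
Hypoxia response in scrambled cells (horizontal axis, log2 H-scr against N-scr) and in TET1-si cells (vertical axis, log2 H-si against N-si) for every gene whose mean reached 1 FPKM, with the line of equal responses. All 10 genes of fatty acid synthesis and desaturation lie below the line, ELOVL6 closest to it and ACSS2 farthest.

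The study selected TET1-dependent genes by 3 criteria: a level in H-scr more than 2 times that in H-si, a level in H-scr higher than in N-scr, and no increase from N-scr to N-si. Of the 10 genes 5 met all 3 (ACACA, SCD, FADS1, ELOVL5 and ELOVL6), where 3.84% of all genes tested did. The other 5 (ACLY, ACSS2, FASN, FADS2 and LPIN1) missed the last, because N-si was above N-scr, and FASN also missed the ratio under hypoxia. For these 5 the change with TET1-si was above 0 in normoxia and below 0 in hypoxia, a sign pattern found in 13.8% of all genes tested. The genes with the largest differences between hypoxia responses, ACSS2, LPIN1 and ACLY, thus did not meet the criteria as applied here, while ELOVL6, with the smallest, did. The criteria were met by 578 of the 15057 genes tested, and the study's own gene list was not compared.

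FPKM are scaled by length, so the levels of different genes can be ordered. FASN was the most abundant of the 10 in every library but H-scr, where it ranked 2 behind SCD. SCD ranked 3 in N-scr, but 8 and 4 in the knockdown libraries N-si and H-si. ACSS2 ranked 8 in N-scr and 3 in H-scr, while LPIN1 and FADS2 held ranks 9 and 10 in all 4 libraries. Of the summed level of the 10 genes, SCD made up 14.8% in N-scr and 27.7% in H-scr, but 2.79% in N-si and 7.94% in H-si. FASN made up 25.9%, 19.5%, 42.5% and 44.8% in the same order, so the near-equal sums of the libraries other than H-scr held different mixtures, with FASN a larger and SCD a smaller share in both knockdown libraries. ACSS2 went from 1.87% in N-scr to 15.6% in H-scr, and made up 5.46% and 10.1% in N-si and H-si.

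Paralogs of these enzymes differed in which library was highest. SCD5, a second stearoyl-CoA desaturase, went from 2.20 FPKM in N-scr to 3.52 in H-scr, and from 8.17 in N-si to 9.65 in H-si, higher in both knockdown libraries than in both controls. The ratio of SCD to SCD5 went from 36.1 in N-scr to 143.8 in H-scr, and from 1.76 in N-si to 4.37 in H-si. FADS3, the third gene of the cluster on chromosome 11, was at 53.4, 129.3, 75.9 and 157.4 FPKM, at least 2-fold higher in hypoxia in each knockdown state, and the ratio of FADS1 to it was 0.927, 0.909, 0.508 and 0.264. LPIN3 was at 7.61, 29.5, 13.2 and 36.9 FPKM and also rose in hypoxia in both states, whereas LPIN1 did so in scrambled cells alone. ACSS1, the mitochondrial acetyl-CoA synthetase, was at 1.39, 3.34, 0.278 and 0.795 FPKM, far below ACSS2 in each library and lower with TET1-si at either oxygen level. ELOVL1, the most abundant elongase measured, was at 120.3, 129.0, 62.7 and 65.1 FPKM and, like ELOVL6, was set apart by knockdown state and not by oxygen. LPIN2 was at 0.819, 1.98, 2.47 and 3.67 FPKM. H-si, and not H-scr, was the highest library for SCD5, FADS3, LPIN2 and LPIN3. For ACSS1, ACACB, ELOVL1, ELOVL4 and ELOVL7 the highest library was H-scr, as for the enzymes themselves. ACACB, the paralog of ACACA, was at 2.54, 5.07, 3.97 and 3.24 FPKM.

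**Figure D4:**
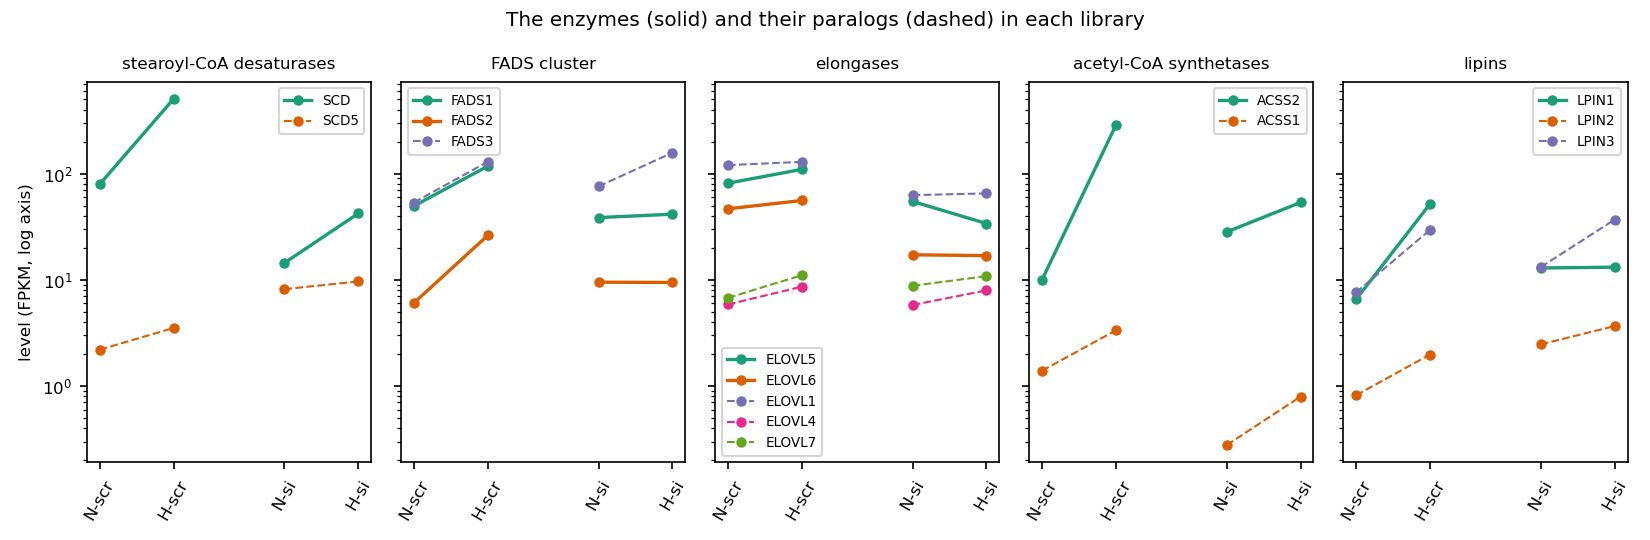
Level (FPKM, log axis) of the enzymes (solid lines) and their paralogs (dashed lines) in the 4 libraries, with a line from normoxia to hypoxia within each knockdown state. SCD falls from 506.3 FPKM in H-scr to 42.2 in H-si while SCD5, FADS3, LPIN2 and LPIN3 are highest in H-si.

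A wider list of 34 other genes of fatty acid synthesis, activation and elongation had 26 genes above the minimum level. In scrambled cells hypoxia raised 8 of these 26 at least 2-fold (SLC25A1, ACSS1, FADS3, ACSL1, ACSL4, ACSL5, LPIN2 and LPIN3), where 12.9% of all genes were higher, and lowered 0, where 4.53% were lower. In TET1-si cells 4 were higher (ACSS1, FADS3, ACSL5 and LPIN3), where 12.5% of all genes were, and 1 lower (MID1IP1), where 8.66% were, so these counts were near or under the shares over all genes. Under hypoxia 5 were at least 2-fold lower with TET1-si (ACSS1, MID1IP1, PTPLA, ACSL1 and ACSL4), where 8.35% of all genes were, and 2 higher (SCD5 and ACSL5), where 12.0% were. Their median changes were 0.53 with hypoxia in scrambled cells against 0.04 in TET1-si cells, -0.33 with TET1-si in hypoxia and 0.27 in normoxia, and H-scr was the highest library for 12 of the 26, where it was for 17.6% of all genes. ACSL1, an acyl-CoA synthetase that activates long chains, had the same order of libraries as ACSS2, FASN and LPIN1, going from 9.76 FPKM in N-scr to 75.7 in H-scr and from 12.4 in N-si to 24.0 in H-si. SLC25A1, the mitochondrial citrate carrier that feeds ACLY, was at 24.6, 61.9, 30.9 and 34.0 FPKM. MID1IP1, which promotes polymerization of acetyl-CoA carboxylase, was at 22.0, 16.5, 12.6 and 5.93 FPKM, and PTPLA, an acyl-CoA dehydratase of the elongation cycle, at 13.6, 14.3, 5.39 and 5.34 FPKM.

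Of 13 listed regulators of the pathway 11 passed the minimum level. SREBF1, which encodes SREBP-1, went from 105.0 FPKM in N-scr to 280.3 in H-scr, and from 94.9 in N-si to 144.8 in H-si. SREBF2, which encodes SREBP-2, was at 84.9, 193.4, 46.1 and 85.8 FPKM. INSIG1, which holds SREBPs in the endoplasmic reticulum and is itself their target, was at 23.7, 171.9, 14.7 and 40.7 FPKM. All 3 rose with hypoxia in scrambled cells, by 1.42, 1.19 and 2.86, and were highest in H-scr. SREBF2 and INSIG1 were at least 2-fold lower with TET1-si in hypoxia, at -1.17 and -2.08, and SREBF1 had a change of -0.95. Their hypoxia responses in TET1-si cells were 0.61 for SREBF1, 0.90 for SREBF2 and 1.46 for INSIG1. Over all genes tested, 12.9% were at least 2-fold higher with hypoxia in scrambled cells and 8.35% at least 2-fold lower with TET1-si in hypoxia. None of the other 8 regulators changed 2-fold in either of these comparisons. Among them SCAP, the escort of SREBPs, was at 22.1, 20.3, 24.7 and 30.4 FPKM, and the processing proteases MBTPS1 and MBTPS2 were at 61.4, 79.8, 54.9 and 84.6 and at 15.2, 11.4, 11.8 and 11.5 FPKM. INSIG2, the paralog of INSIG1, was at 13.9, 25.4, 13.3 and 19.0 FPKM. The liver X receptors NR1H2 and NR1H3, MLX and the AMPK subunit gene PRKAA1 also remained within 2-fold in both comparisons, with changes of 0.50, 0.30, -0.04 and 0.23 with hypoxia in scrambled cells. MLXIPL, which encodes the carbohydrate-responsive factor ChREBP, had a mean below the minimum, at 0.268, 1.83, 0.185 and 0.485 FPKM, as did PRKAA2 at 0.681, 1.01, 0.0891 and 0.175 FPKM.

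The cholesterol branch, which starts from the same acetyl-CoA and is controlled by SREBP-2, was compared as a list of 20 genes. The study had already reported cholesterol metabolism, with INSIG1, among genes it selected in part by these criteria on these libraries. Counts for this list are therefore no independent check of that report. Of the 20 genes 19 rose at least 2-fold in the hypoxia response of scrambled cells, where 12.9% of all genes tested did. With TET1-si in hypoxia 18 were at least 2-fold lower, where 8.35% of all genes were, and 15 met the 3 criteria, where 3.84% did. The largest responses were those of TM7SF2 (4.14) and LSS (3.72) with hypoxia in scrambled cells and of CYP51A1 (-3.14) and ACAT2 (-3.04) with TET1-si in hypoxia, and PMVK was higher with TET1-si in hypoxia (1.18). Their median changes were 1.98 with hypoxia in scrambled cells against 0.41 in TET1-si cells, -2.12 with TET1-si in hypoxia and -0.46 in normoxia. In each of these 4 comparisons the median of the 10 fatty acid genes had a smaller absolute value, and whether the lists differ was not tested.

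Genes that break fatty acids down were also counted. All 20 genes of a beta-oxidation list passed the minimum level, and H-scr was the highest library for 3 of them, where 17.6% of all genes tested were highest there. Hypoxia raised 3 at least 2-fold in scrambled cells (CPT1B, CPT1C and ACADS), where 12.9% of all genes were higher, so both counts were near the share over all genes. Under hypoxia 4 were at least 2-fold higher with TET1-si (SLC25A20, ACADVL, ACADL and ETFDH), where 12.0% of all genes were, and 0 lower, where 8.35% were. Their medians were 0.04 for hypoxia in scrambled cells and 0.47 for TET1-si in hypoxia. ACADVL, the very long chain acyl-CoA dehydrogenase, went from 421.2 FPKM in N-scr to 436.6 in H-scr, and from 639.1 in N-si to 927.3 in H-si. SLC25A20, the carnitine and acylcarnitine carrier, was at 5.31, 4.29, 11.4 and 11.5 FPKM, and CPT1A, the entry enzyme of mitochondrial oxidation, at 42.9, 27.4, 42.3 and 43.3 FPKM. Of 14 genes of fatty acid uptake and binding 6 passed the minimum level. FABP5, the epidermal fatty acid binding protein and the most abundant of them, was at 165.3, 72.5, 151.4 and 47.2 FPKM and fell at least 2-fold with hypoxia in both knockdown states.

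The profile of the 10 genes over the 4 libraries was summarised as the median of their log2 levels, each less its own mean. Among 9526 protein-coding genes of a mean FPKM of at least 5 that are no member of the 10, the 4 nearest to it by Euclidean distance were PLSCR1 (0.201), IDH2 (0.315), NSDHL (0.332) and KLF6 (0.335). IDH2, a mitochondrial NADP-dependent isocitrate dehydrogenase, went from 29.2 FPKM in N-scr to 68.9 in H-scr, and from 31.5 in N-si to 29.1 in H-si. NSDHL, a sterol synthesis enzyme, was at 20.6, 47.9, 15.1 and 14.5 FPKM, and PLSCR1, a phospholipid scramblase, at 75.2, 182.4, 78.9 and 68.0 FPKM. Of the 10 genes FADS1 lay nearest to their own median profile (0.303), and SCD (2.67) and ACSS2 (2.55) lay farthest. With 4 libraries such distances are a description only.

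The 10 genes lie on chromosomes 2, 4, 6, 10, 11, 17 and 20, and their changes were set against the median change of the 50 nearest protein-coding genes. For 9 of the 10 the neighbours had a median change of between -0.10 and 0.18 with TET1-si in hypoxia and of at most 0.30 in normoxia. FASN was the exception. Its neighbours near the end of chromosome 17 had a median of 0.85 with TET1-si in hypoxia and 0.97 in normoxia, so that FASN relative to them was at -1.44 and -0.31, whereas its own changes were -0.59 and 0.66. Relative to its neighbours FASN therefore passed 2-fold under hypoxia and changed sign in normoxia. The cause of this regional shift was not tested.

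**Figure D5:**
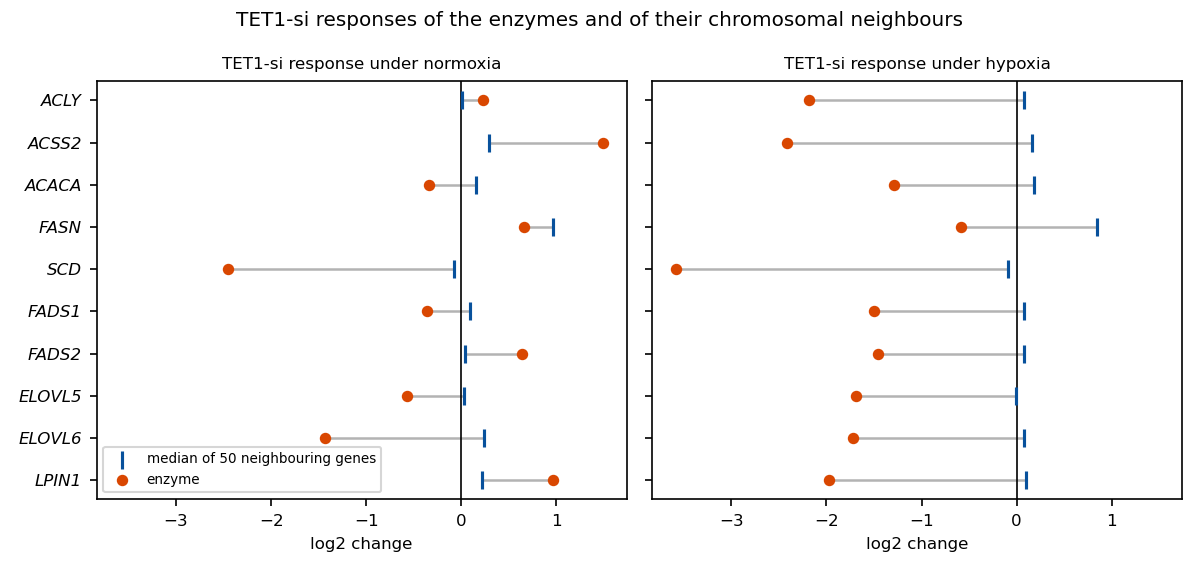
Change with TET1-si of each of the 10 genes and the median change of its 50 nearest protein-coding genes (log2 of FPKM + 0.1) in hypoxia and in normoxia. The neighbour medians sit near 0 except for FASN, at 0.85 in hypoxia and 0.97 in normoxia.

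The squamous epithelial identity of the libraries was checked on markers. All 8 squamous markers had a mean above the minimum level, but KRT14 and KRT6A owed it to the scrambled libraries. KRT14 was at 42.1, 99.9, 0.487 and 1.41 FPKM and KRT6A at 67.7, 109.2, 0.394 and 0.357 FPKM, so that the scrambled libraries were 86.5-fold and 172-fold above the TET1-si libraries in normoxia and 70.9-fold and 306-fold above them in hypoxia. The summed level of the 8, most of it KRT5 and KRT17, went from 4754 FPKM in N-scr to 7529 in H-scr, and from 1922 in N-si to 3997 in H-si. Others of the 8 went the other way and were higher with TET1-si at each oxygen level. EPCAM was at 154.5, 101.6, 205.9 and 163.4 FPKM, CDH1 at 179.3, 291.9, 266.9 and 398.9, and JUP at 83.7, 138.3, 118.7 and 166.4. TP63 changed little, at 50.7, 54.8, 42.1 and 53.4 FPKM. The markers thus moved with the groups too, but not in 1 direction, and their part in the results above was not tested. Of the markers of other cells, 0 of 4 passed for adipocytes (ADIPOQ and LEP were listed at 0 in all 4 libraries), 1 of 4 for hepatocytes, 1 of 6 for fibroblasts (COL1A1, with COL1A2 and LUM listed at 0), 2 of 5 for leukocytes (CD3E listed at 0) and 2 of 3 measured for endothelial cells. The summed levels ran from 0.212 FPKM in N-si to 1.56 in H-scr for adipocytes, from 4.06 in N-si to 12.6 in H-scr for hepatocytes, from 5.30 in N-scr to 37.2 in H-si for fibroblasts, from 21.6 in H-scr to 30.2 in H-si for leukocytes and from 8.93 in N-scr to 48.4 in H-si for endothelial cells.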

How the data were processed

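RNA sequencing of 4 FaDu libraries was deposited as 1 table of gene-level FPKM, which the authors made with TopHat and Cufflinks on hg19 with Ensembl annotation. Versions are not given in the sources used here. The labels describe 100 bp single end reads and the study's methods paired end reads, and neither names a strand setting. Start positions counted from 0 and 1 was added.

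Groups came from the labels. Changes were log2(FPKM + 0.1) differences of single libraries, and a 2-fold difference (1 on this scale) in a gene whose mean reached 1 FPKM was called higher or lower. The pseudocount understates changes of low genes. FPKM are no counts, so no count test was run. Depth was recovered from 5204 genes with 1 exon, as the depth and the length offset (212 bp) at which low values became whole reads, which 97.0% to 97.7% did within a tolerance of 0.05. Exact (Clopper-Pearson) 95% intervals were used for ratios between single libraries. For the difference between hypoxia responses the 95% interval was a normal one on the log2 scale, without a pseudocount. Both rest on those approximate reads, and cover counting error only. The depth search and the counting were tested on simulated data. Of the gene IDs, 111 stood on more than 1 row (232 rows) and were left out of the counts over all genes, as was the second row of ACLY, on a patch sequence.

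The 10 genes and all lists were chosen with earlier results of these data known. Named beside the 10 were the regulators, up to 4 genes of each other list with the largest changes in the hypoxia response of scrambled cells or the TET1-si response under hypoxia (mean FPKM of at least 5), and the 5 nearest profiles, of which 1 is not reported here. Others, such as low paralogs and overlapping genes, were chosen after their values were seen. Alternatives were median-of-ratios, upper-quartile and TPM scaling, pseudocounts of 0 and 1, no minimum or a minimum of 5 FPKM, 1.5-fold, and changes less the median of 50 neighbours. Promoter windows were RefSeq's. Python 3.11.15, numpy 2.4.6, scipy 1.17.1, pandas 2.3.3 and matplotlib 3.10.9 were used.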

Additional observations from a re-analysis of the deposited data

Results flagged for a closer look

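Several of the 10 genes moved in opposite directions in paired comparisons of single libraries. None of these differences was tested, since each group has 1 library. The TET1-si response was above 0 in normoxia and below 0 in hypoxia for ACSS2 (1.49 and -2.42, a difference of -3.90), LPIN1 (0.97 and -1.97, a difference of -2.94), ACLY (0.23 and -2.19, a difference of -2.41), FADS2 (0.64 and -1.46, a difference of -2.10) and FASN (0.66 and -0.59, a difference of -1.25). The hypoxia response was above 0 in scrambled cells and below 0 in TET1-si cells for 5 of the 10, where 11.8% of all genes tested had this pattern. They were ACLY (1.74 and -0.67, a difference of -2.41), ELOVL5 (0.43 and -0.69, a difference of -1.12) and ACACA (0.65 and -0.31, a difference of -0.95). The others were FADS2 (2.09 and -0.01, a difference of -2.10) and ELOVL6 (0.26 and -0.03, a difference of -0.28), whose counting intervals in TET1-si cells include 0. A difference between hypoxia responses equals the difference between TET1-si responses, so ACLY and FADS2 stand in both, each with 1 value. All values are log2(FPKM + 0.1).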

How the results depend on the processing

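No paired analysis was possible because each group has 1 library, and leaving out a library in turn was not run for the same reason. The median difference between hypoxia responses moved by less than its counting error, and the count of genes meeting the 3 criteria was 5, under every alternative run for them. The criteria are set on FPKM. Relative to its neighbours FASN, which missed them, changed by 1.27 with hypoxia in scrambled cells. With TET1-si it changed by -1.44 in hypoxia and -0.31 in normoxia, values that would meet all 3. Of the median changes of the 10 genes, that with hypoxia in scrambled cells was 1.55 and became 1.502 with median-of-ratios scaling, 1.67 in TPM and 1.49 relative to neighbours. With hypoxia in TET1-si cells it was 0.01 and became 0.11 with upper-quartile scaling and 0.14 in TPM. With TET1-si in hypoxia it was -1.70 and became -1.83 with median-of-ratios scaling, -1.76 with upper-quartile scaling and -1.64 in TPM. With TET1-si in normoxia it was -0.06 and became -0.22, -0.18 and, relative to neighbours, -0.38. The count higher with hypoxia in TET1-si cells was 1 and became 2 with upper-quartile scaling, in TPM and at 1.5-fold, and the count lower went from 0 to 2 at 1.5-fold. The count higher with TET1-si in normoxia went from 1 to 2 in TPM and to 4 at 1.5-fold. Scaling moved the median of all genes most with median-of-ratios (-0.15, TET1-si in normoxia) and in TPM (0.14, hypoxia in TET1-si cells). Values of single genes moved past their counting error in 111 of 300 cases, and no change of at least 2-fold turned its sign. The sign of FADS2 (0.10 and 0.13) and of ELOVL6 (0.08 and 0.11) with hypoxia in TET1-si cells turned with upper-quartile scaling and in TPM, that of ELOVL6 (0.14) also relative to neighbours, and that of FASN (-0.31) with TET1-si in normoxia relative to neighbours. The cause was not tested. With 1 library a group, no spread between cultures is known, and FADS2 had the fewest reads.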
